A study of Mus musculus with 4 samples.

Results

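Chemokine receptors steer regulatory T (Treg) cells to the places where they act, and 9 of them were followed here among the 24418 genes listed in a count table of sorted mouse Treg cells. The genes were taken by symbol: Ccr7, Cxcr4 and Cxcr5, known for positioning in lymphoid organs; Ccr4, Ccr8 and Ccr10, tied to skin and other barrier tissues; and Cxcr3, Ccr6 and Ccr2, tied to inflamed tissue. The study asked how thymic stromal lymphopoietin (TSLP), a cytokine made by epithelial cells, acts on Treg cells. For this RNA-seq experiment, Treg cells were sorted from the spleens and lymph nodes of Foxp3yfpCre mice aged 8 to 12 weeks and were held for 3 h with PBS or with TSLP at 100 ng/mL. Both groups carried the same allele, in which YFP and Cre sit in the Foxp3 locus, so that YFP marks cells that express Foxp3. There were 2 libraries in each group, PBS 1 and PBS 2 against TSLP 1 and TSLP 2, with 11328132, 10724392, 11761234 and 10271571 reads on genes. The labels do not say whether the libraries came from separate mice or cultures, so the p-values measure only the spread between these 4 samples.

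Chemokine receptors are G protein-coupled receptors. On binding a chemokine they signal through inhibitory G proteins to integrins and the actin cytoskeleton, and the cell moves up the gradient of the ligand. Resting Treg cells are known to keep CCR7, which leads them into the T cell zones of lymph nodes, whereas effector Treg cells take up receptors for skin, gut, lung, follicles or sites of inflammation.

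Reads were found for 8 of the 9 receptors. The strongest signals were for Ccr7, Cxcr4 and Ccr8, and Ccr10 had no reads in any library. Ccr6, the receptor for CCL20, had the largest difference in log2 between the groups: its mean normalized count (reads divided by the size factor of the library) was 148 ± 22.1 with PBS and 288 ± 19.6 with TSLP (SD, n = 2 per group). Of the 11392 genes tested by limma, 0 (0%) had a Benjamini-Hochberg adjusted p under 0.05, and no receptor passed. The smallest adjusted p of any gene was 0.9999, which was also that of each receptor tested. Without adjustment, 192 genes (1.69%) had a p under 0.05 by limma, as had 234 by edgeR and 234 by DESeq2, which also gave 0 adjusted calls. Ccr6 was the 1 receptor of 8 among those 192 genes.

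One library stood apart from the rest, and this bears on every comparison between PBS and TSLP. When the reads of 2 libraries were compared over genes, the chi-square per degree of freedom was 68.0 for PBS 1 and PBS 2, 55.0 for PBS 1 and TSLP 1, and 55.6 for PBS 1 and TSLP 2. The 3 pairs without PBS 1 gave 16.6 to 19.9. The label of the cells was checked against markers of Treg cells. Ctla4, an inhibitory receptor of Treg cells, had 1284 and 1142 CPM (reads of a gene scaled to 1000000 reads on genes) in the PBS libraries and 1198 and 1253 CPM in the TSLP libraries, which are close to each other. Foxp3, the factor that defines the lineage, had 222, 472, 407 and 470 CPM in PBS 1, PBS 2, TSLP 1 and TSLP 2, lowest in PBS 1. Ikzf2, which encodes the factor Helios, was likewise lowest there (568, 976, 996 and 953 CPM), as was Il2ra, the alpha chain of the IL-2 receptor (342, 446, 433 and 498 CPM). Tnfrsf18, which encodes the receptor GITR, went the other way and was highest in PBS 1 (532, 348, 356 and 427 CPM). Cd4 and Cd3e, general T cell genes, lay between 512 and 602 and between 232 and 261 CPM. Each receptor is therefore given with and without PBS 1.

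The level of each receptor mRNA was next set on a scale that allows genes to be compared, as CPM per kilobase of exon. Ccr7 came first with a mean level of 860 over the 4 libraries and a range of 754 to 1059, rank 17 of 13787 genes by this level. Cxcr4 followed at 201 (168 to 223) and Ccr8 at 110.0 (97.8 to 117), ranks 150 and 350. After a gap of 4.21 times came Cxcr3 at 26.1 (22.5 to 28.5), Ccr4 at 20.4 (14.7 to 23.9) and Ccr2 at 18.04 (16.7 to 18.7). The ranges of these neighbours overlapped, Cxcr3 with Ccr4 and Ccr4 with Ccr2, and Ccr4 was above Cxcr3 in TSLP 1 and below Ccr2 in PBS 1, so their order is not settled by 4 libraries. Ccr6 at 8.63 (5.21 to 11.7) and Cxcr5 at 3.72 (2.49 to 5.56) were lowest of the receptors read. Their ranges overlapped across libraries, but Ccr6 was above Cxcr5 in each of the 4 libraries. The order was the same when the length of the longest transcript was used in place of all exons, although the level of Ccr6 then became 11.4 and that of Ccr2 21.3.

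**Figure D1:**
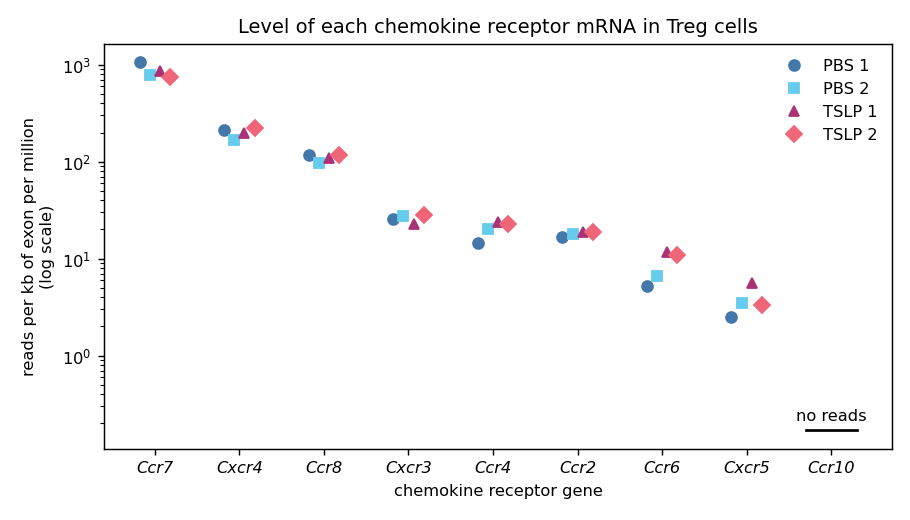
Level of each chemokine receptor mRNA on a log scale, in CPM per kilobase of exon, with one point for each of the 4 libraries. Ccr7 lies highest in each library and Cxcr5 lowest of the receptors read, and the black line for Ccr10 marks the level that 3 reads would give.

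Ccr7 made up most of the receptor signal. Of the summed level per kilobase of the 9 receptors it took 71.1% ± 2.45 with PBS and 66.3% ± 3.23 with TSLP (SD, n = 2). Cxcr4 took 14.8% ± 0.318 and 17.5% ± 2.0, and Ccr8 took 8.42% ± 0.469 and 9.30% ± 0.862. Ccr6 held a small share, 0.474% ± 0.163 with PBS and 0.938% ± 0.00625 with TSLP. These shares are of one sum, so a higher share of one receptor lowers the others, and they were not tested.

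Among the receptors of lymphoid organs, Ccr7 (ENSMUSG00000037944.8, chr11:99144196-99155077, minus strand, GRCm38), the receptor for CCL19 and CCL21, was covered by 23721 reads in PBS 1 and 16447 in PBS 2, against 19855 in TSLP 1 and 15316 in TSLP 2. PBS 1 was highest and the groups overlapped. The log2 fold change of TSLP against PBS, on log2(normalized count + 1) here and below, was -0.17 with a 95% interval from -0.81 to 0.48 (limma, unadjusted p = 0.568). Without PBS 1 it was 0.072, and without PBS 2 it was -0.41, so its sign rested on PBS 1. With the trend of the fold change over exon length taken out of all genes, it was -0.026. Since these are bulk samples, fewer cells that express a receptor and less of its RNA per cell cannot be told apart.

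Cxcr4 (ENSMUSG00000045382.6, chr1:128588199-128592293, minus strand), the receptor for CXCL12 that holds cells in bone marrow and lymphoid stroma, had 4351, 3265, 4256 and 4136 reads in PBS 1, PBS 2, TSLP 1 and TSLP 2. PBS 2 was lowest, and the other 3 libraries lay together. Its log2 fold change was 0.17 (95% interval -0.35 to 0.68; limma, unadjusted p = 0.485), and 0.35 without PBS 1. Without PBS 2 the value was -0.019, and with the length trend removed it was 0.32.

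Cxcr5 (ENSMUSG00000047880.15, chr9:44511787-44561877, minus strand), the receptor for CXCL13 that brings follicular regulatory T cells into B cell follicles, had 94, 124, 218 and 115 reads. TSLP 1 was high, while TSLP 2 lay between the PBS libraries in reads. The log2 fold change was 0.56 with a wide 95% interval, -0.55 to 1.67 (limma, unadjusted p = 0.283). It was 0.34 without PBS 1 and 0.78 without PBS 2, and moved most with the TSLP libraries, to 0.18 without TSLP 1 and 0.94 without TSLP 2. Of the 50-base windows of Cxcr5 transcripts, 61 of 3281 (1.86%) were shared with another gene, Bcl9l, which overlaps it on the other strand.

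Of the receptors of skin and barrier tissue, Ccr8 (ENSMUSG00000042262.5, chr9:120092114-120094906, plus strand), a receptor for CCL1 and CCL8 found on effector Treg cells of tissues, had 1564, 1232, 1494 and 1408 reads in PBS 1, PBS 2, TSLP 1 and TSLP 2. Both TSLP values lay between the PBS values. Its log2 fold change was 0.074 (95% interval -0.43 to 0.58; limma, unadjusted p = 0.749), and 0.22 without PBS 1. Without PBS 2 it was -0.075, and with the length trend removed it was 0.25.

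Ccr4 (ENSMUSG00000047898.7, chr9:114490316-114504916, minus strand), the receptor for CCL17 and CCL22, had 514, 675, 869 and 717 reads. Both TSLP libraries were above both PBS libraries in normalized count, which averaged 587 ± 125 with PBS and 784 ± 49.0 with TSLP (SD, n = 2). PBS 1 was the lowest library. The log2 fold change was 0.43 (95% interval -0.17 to 1.03; limma, unadjusted p = 0.136) and was 0.21 without PBS 1 and 0.65 without PBS 2.

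Ccr10 (ENSMUSG00000044052.3, chr11:101172997-101175443, minus strand), the receptor for CCL27 and CCL28 on cells bound for skin and mucosa, had 0 reads in each of the 4 libraries. A count of 0 allows up to 3 reads, that is 0.265, 0.280, 0.255 and 0.292 CPM in PBS 1, PBS 2, TSLP 1 and TSLP 2, counting error only. None of its transcript windows of 50 bases was shared with another gene. Its mRNA was therefore not detectable at this depth, in either group.

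Of the receptors of inflamed tissue, Cxcr3 (ENSMUSG00000050232.6, chrX:101731535-101734269, minus strand), the receptor for CXCL9, CXCL10 and CXCL11 on Treg cells that carry T-bet, had 506, 513, 459 and 507 reads. The 4 values were close and the groups overlapped. The log2 fold change was -0.068 (95% interval -0.69 to 0.55; limma, unadjusted p = 0.810), -0.10 without PBS 1 and 0.079 without TSLP 1. Its sign also turned with the length trend removed, to 0.086.

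Ccr2 (ENSMUSG00000049103.14, chr9:124101950-124113557, plus strand), the receptor for CCL2, had 1280, 1315, 1480 and 1297 reads. After division by the size factors the TSLP values no longer overlapped the PBS values, at 1375 ± 27.5 against 1278 ± 53.1 (mean ± SD, n = 2). The difference was small, a log2 fold change of 0.11 (95% interval -0.38 to 0.59; limma, unadjusted p = 0.636), and 0.063 without PBS 1. With the length trend removed it was 0.046. Of its transcript windows 129 of 6758 (1.91%) were shared with other genes, so reads there cannot be assigned with certainty.

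Ccr6 (ENSMUSG00000040899.14, chr17:8236043-8257141, plus strand), the receptor for CCL20 that brings T cells to gut and other mucosal tissue, was covered by 137 reads in PBS 1 and 164 in PBS 2, against 320 in TSLP 1 and 262 in TSLP 2. The groups did not overlap, with both TSLP values above. The log2 fold change was 0.96 ± 0.37 (SE), a fold of 1.94 with a 95% interval of 1.08 to 3.47 (limma, unadjusted p = 0.0299, adjusted p = 0.9999). Ccr6 was thus not past the threshold once all genes were taken into account. Without PBS 1 the log2 fold change was 0.80 (unadjusted p = 0.0742, limma), and it lay between 0.80 and 1.11 whichever library was left out. An exact permutation test of 2 against 2 libraries cannot give a p under 0.333.

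**Figure D2:**
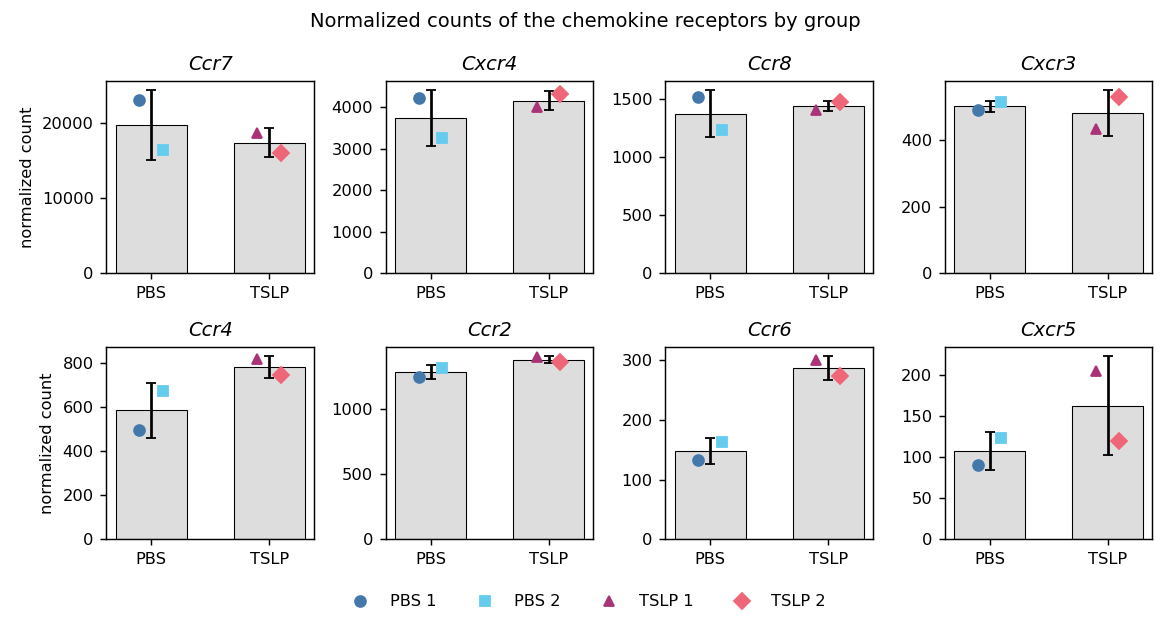
Normalized count of each receptor by group, with bars for the mean of 2 libraries, error bars for the SD and one point for each library. The groups are apart for Ccr6, Ccr4 and Ccr2, and the points of the other receptors overlap between PBS and TSLP.

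TSLP is known to signal through STAT5, whose sites are often written TTCNNNGAA, so the promoter windows of the receptors were read for these letters. RefSeq windows (GRCm38.p6) were matched for 6 of the 9 receptors, 7 windows in all. TTCNNNGAA reads the same on both strands and was the only motif searched. It was found in 1 of the 7 windows, the first of Ccr6, where TTCAAAGAA lies 157 to 149 bases and TTCCAAGAA 120 to 112 bases before the start. Among 32851 promoter windows of the same length, 2726 (8.3%) held at least 1 match and 150 (0.457%) at least 2. A match is a string of letters and not a site shown to be bound. The 250 bases before the start are shown for both Ccr6 windows, since Ccr6 differed most between the groups, and for Ccr4, the next of the receptors whose groups do not overlap, with matches in capitals.
Ccr6 window 1, chr17:8235793-8236042, plus strand: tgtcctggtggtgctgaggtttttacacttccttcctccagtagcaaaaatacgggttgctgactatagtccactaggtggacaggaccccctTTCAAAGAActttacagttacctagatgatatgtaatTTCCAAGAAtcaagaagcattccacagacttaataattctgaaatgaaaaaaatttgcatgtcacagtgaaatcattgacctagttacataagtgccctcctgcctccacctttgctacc
Ccr6 window 2, chr17:8242276-8242525, plus strand: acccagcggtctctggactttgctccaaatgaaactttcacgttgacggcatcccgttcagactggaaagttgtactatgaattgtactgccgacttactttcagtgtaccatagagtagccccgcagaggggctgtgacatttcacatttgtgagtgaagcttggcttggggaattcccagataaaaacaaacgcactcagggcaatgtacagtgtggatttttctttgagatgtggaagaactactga
Ccr4, chr9:114496545-114496794, minus strand: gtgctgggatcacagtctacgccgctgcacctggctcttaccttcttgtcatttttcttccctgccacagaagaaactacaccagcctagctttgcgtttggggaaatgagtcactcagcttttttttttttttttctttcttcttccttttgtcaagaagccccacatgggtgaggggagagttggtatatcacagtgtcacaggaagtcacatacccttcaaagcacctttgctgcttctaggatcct

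Across the receptors, 6 of the 8 tested had a higher and 2 a lower mean with TSLP, and their median log2 fold change was 0.14, against 0.012 over all 11392 genes, of which 5838 were higher and 5554 lower. Both TSLP libraries were above both PBS libraries for 3 of the 8, against 14.5% of all genes, and below for 0 of the 8, against 14.4%. With an unadjusted p under 0.05 and a higher value, there was 1 of 8 (12.5%), against 0.772% of all genes. One gene of 8 is too few to read from this share. Without PBS 1 the receptors stood at 7 higher and 1 lower, with a median of 0.22, and without PBS 2 at 4 higher and 4 lower, with a median of 0.065. The lean to higher values thus depended on which PBS library was kept. Without TSLP 1 they stood at 7 and 1, and without TSLP 2 at 6 and 2. They also stood at 7 and 1 when the trend of the fold change over exon length was taken out of all genes, with a median of 0.28.

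**Figure D3:**
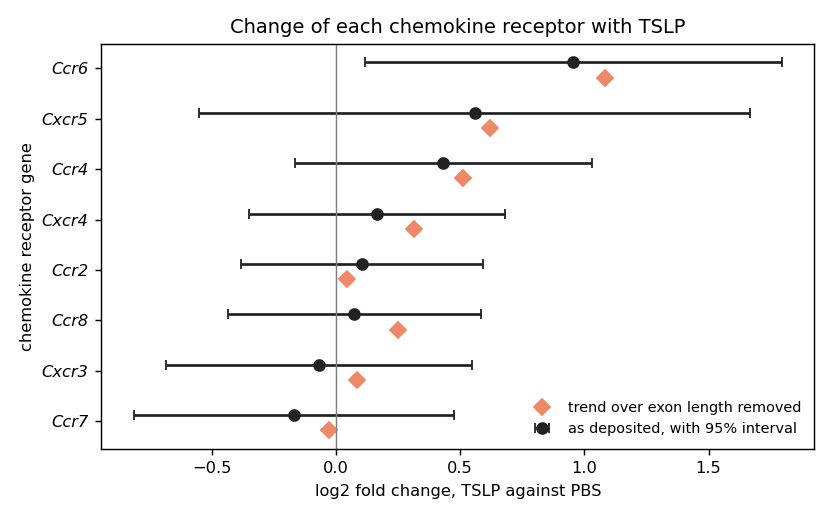
Log2 fold change of TSLP against PBS for the 8 receptors tested, with the 95% interval from limma (black) and the value after a trend over exon length was taken out (orange). The interval leaves 0 out for Ccr6 alone, and Ccr6 is 0.96 as deposited and 1.08 with the trend removed.

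**Figure D4:**
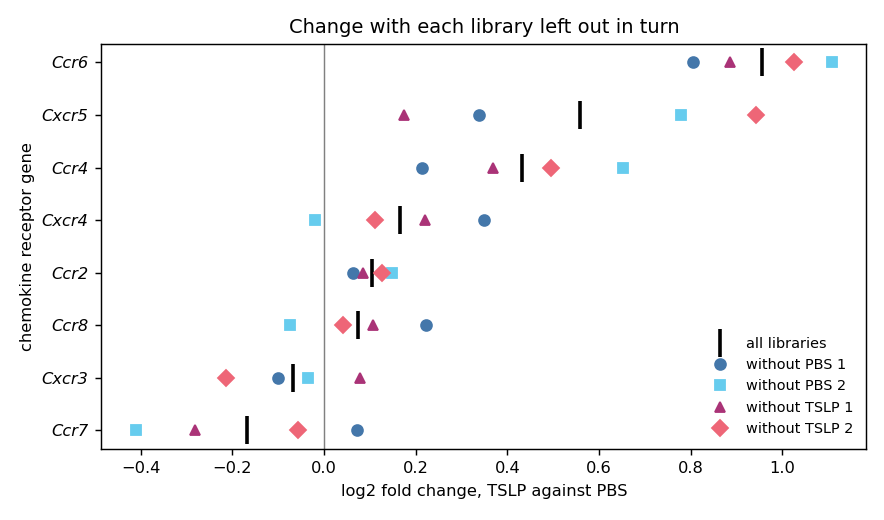
Log2 fold change of each receptor with all 4 libraries (black mark) and with each library left out in turn (colored points). Ccr6, Ccr4, Cxcr5 and Ccr2 stay above 0 in each case, whereas Cxcr4, Ccr8, Cxcr3 and Ccr7 have a point on the other side of 0.

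The 16 other chemokine receptors of the mouse that were listed gave a picture of what else these cells can read. Reads were found for 9, and 7 had none (Ccr1l1, Cxcr1, Cxcr2, Ackr1, Ackr2, Ackr3 and Ackr4). The highest was Cxcr6, the receptor for CXCL16 on tissue T cells, with 744, 670, 605 and 878 reads in PBS 1, PBS 2, TSLP 1 and TSLP 2 and a mean level of 34.3 per kilobase, between Ccr8 and Cxcr3. Its groups overlapped. Of the 8 that were tested, 4 were higher and 4 lower, and 0 had an unadjusted p under 0.05 (limma), against 1.69% of all genes.

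Ligands of the 9 receptors were mostly not read in the sorted cells. Of 19 ligand genes, 10 had no reads in any library, 11 (those 10 included) were at or under 3 reads in each, and 3 could be tested. Cxcl10, a ligand of CXCR3 induced by interferons, had 254, 207, 134 and 83 reads, lower in both TSLP libraries. Its log2 fold change was -1.10 (limma, unadjusted p = 0.0317, adjusted p = 0.9999). Cxcl10 was the 1 ligand of the 3 tested with an unadjusted p under 0.05, against 1.69% of all genes, and 3 genes are too few to read from this share. Ccl20, the ligand of CCR6, was read 94 times in PBS 1, 24 in PBS 2 and 23 in TSLP 1, and had 0 reads in TSLP 2. The log2 fold change of Ccl20 was -3.33 (limma, unadjusted p = 0.0777), and most of its reads came from PBS 1. Of 3 myeloid markers tested, 2 had both TSLP values under both PBS values, against 14.4% of all genes. A list of 3 is too short for this comparison. The 2 were Cd68 (limma, unadjusted p = 0.0601) and Itgam (limma, unadjusted p = 0.236). Itgam had only 23, 19, 4 and 7 reads in PBS 1, PBS 2, TSLP 1 and TSLP 2. Lyz2 had a higher mean with TSLP. Whether the ligands moved with myeloid cells was not tested. Ccl27a, a ligand of CCR10, had 0, 1, 8 and 51 reads and was too low to be tested.

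Genes that act behind and beside the receptors were tested in the same fit. In the 3 lists that follow, 0 genes had an unadjusted p under 0.05 (limma), against 1.69% of all genes. Lists this short would hold few such genes at that share. Among 28 signalling and desensitisation genes, 27 were tested, 13 were higher and 14 lower. The 3 with the most reads were Rap1b, a GTPase that switches integrins on, Rgs2, a brake on G proteins, and Dock2, an activator of Rac in lymphocytes. Dock2 had 5814, 7738, 8276 and 7282 reads in the 4 libraries, lowest in PBS 1. Of 12 genes for lymph node entry, egress and tissue positioning, 5 were higher and 7 lower. S1pr1, the receptor that lets lymphocytes leave lymph nodes, had 5638, 4747, 5374 and 5014 reads with overlapping groups. Of 10 transcription factors tied to the receptors, 2 were higher and 8 lower, and the 3 with the most reads were Foxo1, Irf4 and Gata3.

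Genes of resting and effector Treg cells were listed too, since the receptors divide along that line. Of 9 genes of resting Treg cells, 7 were higher and 2 lower with TSLP, with a median log2 fold change of 0.11. Of 14 genes of effector Treg cells, 9 were higher and 5 lower, with a median of 0.14. In both lists 0 genes had an unadjusted p under 0.05 (limma), against 1.69% of all genes, and the medians stand beside 0.012 over all genes. The most reads were on Satb1, Tcf7 and S1pr1 in the first list, the former pair being factors of resting T cells. In the second they were on Tnfrsf9 and Icos, costimulatory receptors of activated Treg cells, and on Tigit, an inhibitory receptor.

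For the 3 receptors with the highest level, the genes with the nearest pattern over the 4 libraries were looked up by the distance between mean-centred log2(normalized count + 1) values. For Ccr7 these were D230025D16Rik, Aldh16a1 and Mrps30 at 0.0231, 0.0269 and 0.0355. For Cxcr4 they were Ufl1, Pigt and Slc15a3 at 0.0274, 0.0315 and 0.0339. For Ccr8 they included Pik3r3 and Cd83 at 0.0183 and 0.0368. With 4 libraries many genes share a pattern: 2200 genes were nearer to Ccr7 than a flat profile was, and 1146 and 733 for Cxcr4 and Ccr8.

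Several of these receptors are also made by other cells, so markers of such cells were read in the same libraries. The study isolated CD4+ T cells on magnets and then stained them for CD4 and with a dye for dead cells before the sort. A CD4 gate is meant to remove B, natural killer and CD8 T cells and most myeloid cells. B cells carry Ccr7, Cxcr5 and Ccr6. The 4 B cell markers listed summed to 0.618, 10.4, 4.08 and 9.35 CPM in PBS 1, PBS 2, TSLP 1 and TSLP 2, with Cd79b the most abundant, Pax5 at 0 in all libraries and Ms4a1 at 0 in 3. PBS 1, the lowest library for these markers, was lowest for Ccr6 and Cxcr5 and highest for Ccr7. By the sum of these markers PBS 2 was highest, but Cd79b alone was highest in TSLP 2, at 0.618, 5.69, 1.70 and 8.47 CPM. PBS 2 had fewer Ccr6 reads than either TSLP library. The 5 myeloid markers, of cells that carry Ccr2, summed to 17.6, 11.9, 8.59 and 8.76 CPM, with Adgre1 at 0. Cd68 was the most abundant and carried most of the sum in PBS 1, at 15.4, 6.15, 5.02 and 1.56 CPM. Lyz2 was lowest in that library (0.0883, 4.01, 3.15 and 3.89 CPM), and Csf1r reached 2.63 CPM in TSLP 2 and at most 0.0883 CPM elsewhere. Itgam was lower in both TSLP libraries, as Cd68 was, at 2.03, 1.77, 0.340 and 0.681 CPM. The 3 natural killer cell markers summed to 0.706, 0, 0.425 and 2.43 CPM, with Ncr1 and Klrd1 at 0, and the 2 CD8 T cell markers to 13.4, 7.83, 8.84 and 11.98 CPM. The 5 markers of conventional T cells summed to 385, 430, 478 and 386 CPM, led by Actn1. Within this sum Cd40lg was uneven, at 75.3, 33.8, 90.6 and 50.4 CPM, highest in TSLP 1. The cells were sorted as Treg cells from mice in which YFP marks Foxp3, and such a sort is meant to remove conventional CD4+ T cells too. How far other cells were removed was not measured here. The part of such cells in the differences was not tested.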

How the data were processed

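RNA-seq was carried out on 4 libraries of sorted Treg cells (50-base single-end reads, directional kit). Per the labels and the study's methods, the authors aligned reads to mm10 with HISAT2, counted them with HTSeq and normalized them with DESeq2. The annotation and the strand setting are not given in the sources used here. The deposited values are signal, that is reads per gene over a size factor of the library. Each library's step gave back whole reads for 100% of its values (within 0.01). Library totals, 10271571 to 11761234 reads, are sums over genes, and a count of 0 was read as up to 3 reads.

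The main test was limma 3.58.1 (R 4.3.3) with a trend, two-sided, on log2(normalized count + 1), for genes that reached a normalized count of 10 in 2 libraries or more, with Benjamini-Hochberg adjustment over all 11392 genes tested. Alternatives were edgeR 4.0.16 and DESeq2 1.42.0 on recovered reads, other filters and pseudocounts, no trend, removal of a trend over exon length, a replicate block and leaving out each library. The length of the longest transcript was an alternative added after the data were seen. Exon lengths and coordinates came from GENCODE M21 (GRCm38), matched for 98.2% of genes. Promoter windows came from RefSeq (GRCm38.p6). Genes named were the 9 receptors, the 3 genes with the most reads and each gene with an unadjusted p under 0.05 in each list, the 3 nearest patterns of the 3 highest receptors, and markers of other cells. Foxp3 and the other Treg markers below the first 3 were named outside this rule, after their values were seen, and some genes that this rule picks are not reported here. The members and lists were chosen with earlier results of these data known. The fit was tested on simulated data.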

Additional observations from a re-analysis of the deposited data

How the results depend on the processing

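No adjusted call was made in any of the 16 alternatives. The number of genes with an unadjusted p under 0.05 was 192, and became 427 by limma without a trend, 358 without a filter on low values and 404 with the length trend removed together with a replicate block. It ran from 79 (without TSLP 2) to 1858 (without PBS 2) when a library was left out. Of 128 receptor results over the alternatives, 122 kept their direction and 6 reversed. As no setting gave an adjusted call, the side of the threshold on adjusted p says nothing of stability. Alternatives that changed only the filter, the trend or the block in limma left the log2 fold change the same by construction. Cxcr3 was 0.086 with the length trend removed, with or without the block. Removing that trend also moved Ccr7 to -0.026, Ccr8 to 0.25, Cxcr4 to 0.32 (unadjusted p = 0.0940) and Ccr2 to 0.046. With a library left out, Ccr7 ran from -0.41 to 0.072, Ccr8 from -0.075 to 0.22, Cxcr4 from -0.019 to 0.35 and Cxcr3 from -0.21 to 0.079, and the cause was not tested. The median of the receptors was 0.28 with the length trend removed, with or without the block, and ran from 0.065 (without PBS 2) to 0.22 (without PBS 1). Ccr6 had an unadjusted p of 0.0165 to 0.0481 in the 13 settings that kept all libraries. It was 0.0315 without PBS 2, and it was over 0.05 without PBS 1 (0.0742), TSLP 1 (0.152) or TSLP 2 (0.106). Ccr4 had an unadjusted p of 0.0327 without PBS 2. The labels do not say whether same-numbered libraries belong together. The difference of PBS 1 from PBS 2 and that of TSLP 1 from TSLP 2 had a correlation of 0.00072 over 11392 genes. This cannot settle whether the samples were paired, since PBS 1 stood apart. The replicate block in limma gave 258 unadjusted and 0 adjusted calls. With 2 libraries per group, and a library left alone in its group assumed to vary like the other group, small differences are not detectable.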
